A study of Mus musculus with 11 samples.

Results

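The genes described here encode the enzymes that attach glutathione, glucuronic acid or sulfate to drugs, hormones and lipids. They were taken as every gene whose single symbol in the array's annotation belongs to the Gst, Mgst, Ugt or Sult families, which gave 47 of the 18193 genes measured in mouse colon. Of these, 23 were Gst and Mgst genes, 11 were Ugt genes and 13 were Sult genes, and each gene is given by the probe set whose mean signal over the 11 arrays was highest. The samples were total RNA from the colon of adult C57BL/6 mice, hybridised to an Affymetrix expression array. The control group held 3 samples labelled as taken before imatinib, and 4 samples each were taken 3 h and 12 h after imatinib, with no dose given in the labels. Imatinib inhibits tyrosine kinases, among them Abl, Kit and the receptors for PDGF, and the series title places the samples in work on EphB and Abl signalling in intestinal tumours. All groups shared the strain, and no genetic change is named for any of them. Vehicle-injected mice and controls taken at the matched hours were not analysed here, so effects of drug, injection and harvest hour cannot be told apart. Nothing in the labels says that the numbered samples are different mice, and the p-values therefore reflect only how these samples vary.

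Conjugation is the second phase of drug clearance. Glutathione S-transferases, encoded by the Gst and Mgst genes, couple glutathione to electrophilic compounds, UDP-glucuronosyltransferases transfer glucuronic acid from UDP-glucuronate, and sulfotransferases transfer sulfate from PAPS, the activated form of sulfate. The intestinal epithelium carries all 3 systems and passes the conjugates to export pumps in the cell membrane, and many of these genes are known targets of the regulators NRF2, AhR, PXR and CAR.

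The tissue label was checked against marker genes. The absorptive colonocyte genes Car1, Slc26a3 and Aqp8 and the epithelial gene Epcam were high on every array, with Car1 between 4933 and 9844, and the summed signal of 14 colonocyte markers overlapped between all groups. Of 12 small intestinal markers 11 were measured and 3 lay under 16 on every array, among them lactase (Lct) at 12.2 or less, whereas Fabp2 lay between 2821 and 4834 and Slc5a1 between 561 and 1063. Their sum was 4327 to 6266 at 3 h and 4437 to 6342 at 12 h, against 4094 to 4300 in control. Of 15 hepatocyte markers 12 were measured and 6 lay under 16 on every array, albumin (Alb) lay between 4.2 and 43.5 and Ttr between 238.2 and 701.9, and the sum was 389 to 777 at 3 h and 401 to 646 at 12 h, against 616 to 910 in control. The sums of other lists were also compared. The summed signal of 8 of 8 distal colon Hox genes, 2 of them under 16 on every array, was 709 to 1142 at 3 h against 1528 to 2076 in control, and 1559 to 1769 at 12 h. The summed signal of the adipocyte markers, with 14 of 16 measured and 1 of them under 16 on every array, was 4931 to 6560 at 3 h and 2894 to 6175 at 12 h, against 2923 to 3345 in control. For fibroblast markers, 10 in number, the sum was 7573 to 8432 at 12 h, below the 11069 to 14303 in control, and for 10 smooth muscle markers it was 14979 to 23905 at 12 h and 21977 to 26295 in control. The sum of the lymphocyte and macrophage markers, with 11 of 12 measured, was 805 to 934 at 12 h and 919 to 1086 at 3 h, against 1032 to 1291 in control. Male accessory gland markers, 9 of 10 measured, summed to 752.5 on 3 h replicate 4 and to 16.3 to 31.7 on the other 3 h arrays, to 20.3 to 275.6 at 12 h and to 173.8 to 336.2 in control. The sum of the proximal colon markers, 9 of 10 measured, was 827 to 1083 at 3 h and 950 to 1139 at 12 h, within the 661 to 1370 of control. Pancreatic acinar markers, 14 of 19 measured, summed to more than 20000 on 5 arrays (control replicate 1, 3 h replicate 3, and 12 h replicates 1, 3 and 4) and to between 4534 and 6768 on the other 6.

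**Figure D1:**
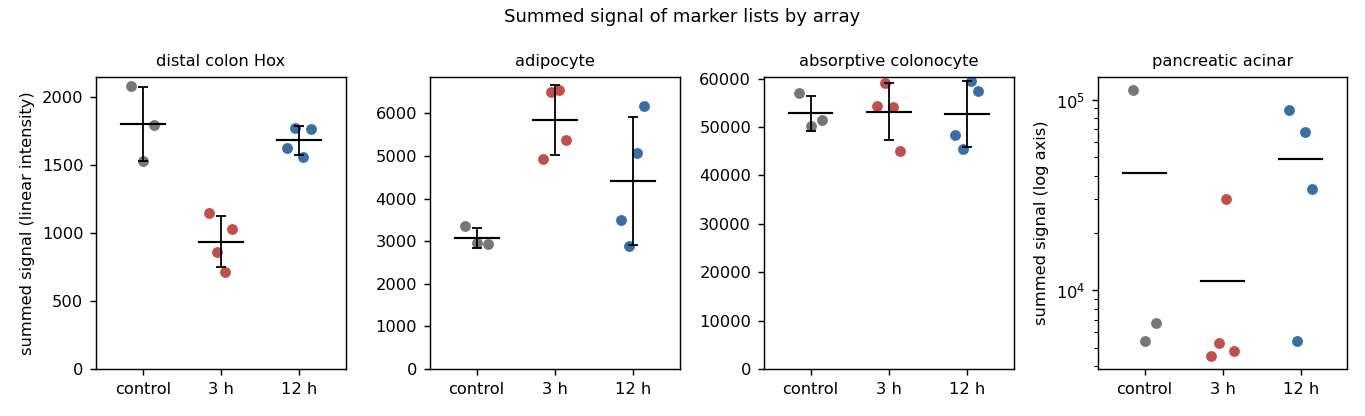
Summed linear signal of 4 marker lists on each array (points) in control (n = 3), 3 h (n = 4) and 12 h (n = 4) samples, with the group mean as a horizontal bar and its SD on the linear panels. The pancreatic panel has a log axis and no SD; 5 of its points lie above 20000, while the distal colon Hox sums at 3 h all lie below those of the other groups.

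At 3 h, 3 of the 47 conjugation genes passed the test, which is 6.38% of them, beside 2.54% of all genes tested (limma adjusted p under 0.05). Ugt8a and Ugt2b5 rose (1.43% of all genes did) and Sult1e1 fell (1.11% of all genes did). At 12 h, 3 of 47 passed again, beside 1.62% of all genes, with Ugt8a higher (0.781% of all genes rose) and Gstm5 and Sult1e1 lower than in control (0.835% fell). Between the 2 times Ugt8a alone passed, as lower at 12 h, which is 2.13% of the genes beside 4.08% of all genes (1.99% rose and 2.09% fell). The comparisons with control share the same 3 control samples. By family, 2 of 11 Ugt genes rose and none fell at 3 h, none of 23 Gst and Mgst genes passed in either direction, and 1 of 13 Sult genes fell. At 12 h 1 Ugt gene rose, 1 Gst gene fell and 1 Sult gene fell.

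The median log2 change of the 47 genes was 0.06 at 3 h and 0.02 at 12 h, beside −0.02 and −0.01 over all genes tested. By family, the 3 h medians were 0.03 for Gst and Mgst genes, 0.10 for Ugt genes and 0.10 for Sult genes, and the 12 h medians were −0.05, 0.20 and 0.03 in the same order. An unadjusted p under 0.05 was found for 6 of the 47 genes at 3 h, 8 at 12 h and 4 between the times. Over all 18193 genes tested it was found for 2728, 2876 and 3227 in the same order. Samples did not overlap between 3 h and control for 7 genes (14.9%, beside 15.3% of all genes), 5 higher (Gstk1, Gstp1, Sult2b1, Ugt2b5 and Ugt8a, beside 6.76%) and 2 lower (Gstm5 and Sult1e1, beside 8.55%). They did not overlap between 12 h and control for 7 genes (beside 13.0%), 3 higher (Ugt2b34, Ugt2b5 and Ugt8a, beside 6.02%) and 4 lower (Gstm2, Gstm5, Gstm7 and Sult1e1, beside 6.96%). Between 12 h and 3 h they were apart for 1 gene, Ugt8a, which was lower (beside 11.5% in either direction, 6.28% higher and 5.26% lower).

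**Figure D2:**
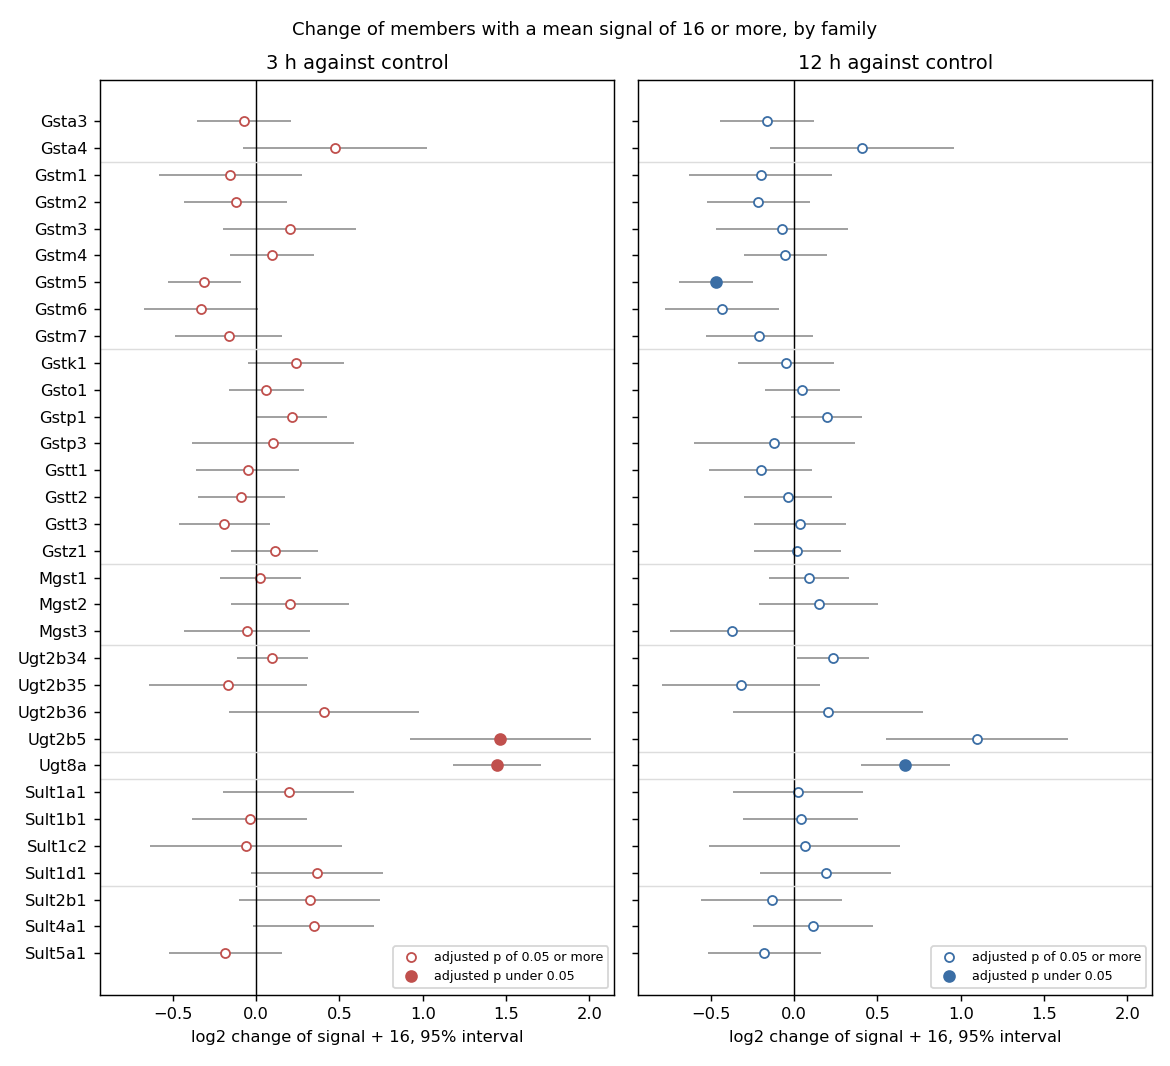
Log2 change of signal + 16 with its 95% interval for the 32 members with a mean signal of 16 or more, grouped by family, at 3 h against control (left) and 12 h against control (right). Filled points passed the test; Ugt2b5 and Ugt8a stand at 1.47 and 1.45 at 3 h, and Gstm5 at −0.47 at 12 h.

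A log2 change here is that of the signal plus 16, a scale that understates the change of dim genes. The mean signal of 15 members lay under 16, and the highest single signal among them was 17.7. They were Gsta2, Gsto2 and Gstt4, then Ugt2a3, Ugt2b1, Ugt2b37, Ugt2b38, Ugt3a1 and Ugt3a2, and Sult1c1, Sult1e1, Sult2a2, Sult2a8, Sult3a1 and Sult6b1. Their values were kept in the test and are described as dim below. No detection call was used, so whether these signals lay above background was not tested.

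The promoters of the 4 genes that passed in a comparison with control are shown because the regulators of these families act through short motifs near the start site. RefSeq windows of GRCm38.p6, running from 250 bases before to 50 bases after the start, were matched by Entrez number for 42 of the 47 genes. The 4 windows were Ugt8a at chr3:125938603-125938902 on the minus strand, Ugt2b5 at chr5:87140291-87140590 on the minus strand, Gstm5 at chr3:107895604-107895903 on the plus strand and Sult1e1 at chr5:87591562-87591861 on the minus strand. Capitals mark matches, on either strand, to the antioxidant response element core TGACNNNGC, the E-box CACGTG, the D-box TTATGNAA or the xenobiotic response element core GCGTG, whose complement reads CACGC.
Ugt8a: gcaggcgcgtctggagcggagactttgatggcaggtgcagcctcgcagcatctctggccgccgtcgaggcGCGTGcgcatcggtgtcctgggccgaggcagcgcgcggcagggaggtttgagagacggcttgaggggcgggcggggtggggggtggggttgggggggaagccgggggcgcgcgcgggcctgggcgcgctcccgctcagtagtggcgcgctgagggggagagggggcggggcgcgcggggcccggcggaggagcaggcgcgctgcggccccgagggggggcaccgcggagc
Ugt2b5: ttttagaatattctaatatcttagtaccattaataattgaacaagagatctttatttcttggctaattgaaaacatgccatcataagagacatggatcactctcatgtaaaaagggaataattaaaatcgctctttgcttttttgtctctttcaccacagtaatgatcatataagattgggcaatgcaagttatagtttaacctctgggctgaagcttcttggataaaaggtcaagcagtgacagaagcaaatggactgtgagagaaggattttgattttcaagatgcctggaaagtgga
Gstm5: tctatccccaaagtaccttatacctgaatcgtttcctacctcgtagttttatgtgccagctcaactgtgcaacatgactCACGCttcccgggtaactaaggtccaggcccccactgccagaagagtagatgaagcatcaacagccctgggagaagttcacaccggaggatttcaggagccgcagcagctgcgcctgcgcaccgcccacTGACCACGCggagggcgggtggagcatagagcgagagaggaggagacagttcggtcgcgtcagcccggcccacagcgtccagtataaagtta
Sult1e1: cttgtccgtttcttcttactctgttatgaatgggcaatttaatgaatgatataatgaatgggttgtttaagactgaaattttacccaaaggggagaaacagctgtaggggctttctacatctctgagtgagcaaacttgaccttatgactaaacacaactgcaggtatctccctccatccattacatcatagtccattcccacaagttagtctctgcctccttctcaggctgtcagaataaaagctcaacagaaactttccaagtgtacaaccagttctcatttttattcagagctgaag
The Ugt8a window was 78.3% G and C and held 1 xenobiotic core, whose first base lies 180 before the start. The Gstm5 window was 57.0% G and C and held 1 antioxidant core starting 42 bases before the start, which overlaps 1 of its 2 xenobiotic cores. The Ugt2b5 and Sult1e1 windows, at 34.3% and 40.0% G and C beside a median of 52.7% over all windows, had no match to these letters. The antioxidant core was in 4 of 54 windows of the conjugation genes (7.41%) and in 12.4% of all 32851 windows. The xenobiotic core was in 12 of 54 (22.2%) and in 32.4% of all, the D-box in 2 of 54 (3.7%) and in 3.38%, and the E-box in 0 of 54 and in 7.15%. A match is a match of letters and was not tested as a site.

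Ugt8a encodes the ceramide galactosyltransferase, which makes the galactolipids of myelin and of some epithelia and is a family member by sequence rather than a drug-conjugating enzyme. Its signal was 12.7, 5.5 and 14.1 in the control samples, 56.4, 54.3, 54.5 and 59.3 at 3 h and 23.7, 27.6, 30.1 and 23.3 at 12 h. The 3 groups did not overlap, with control lowest and 3 h highest. The log2 change was 1.45 ± 0.12 (SE) at 3 h (n = 4 against 3; limma adjusted p = 8.03e-05) and 0.67 ± 0.12 at 12 h (limma adjusted p = 0.0227). From 3 h to 12 h it was −0.78 ± 0.11 (n = 4 each; limma adjusted p = 0.00277). A second Ugt8a probe set, with a signal of 18.0 to 32.9 at 3 h and 2.1 to 4.3 in control, was 1.9 to 5.5 at 12 h. It rose at 3 h by 1.03 when every probe set was tested on its own (limma adjusted p = 0.00473) but had a change of 0.11 at 12 h (limma adjusted p = 0.834), so the 2 probe sets differ on the 12 h call. That call also ended when control replicate 1 or 2, or 12 h replicate 2 or 3, was left out (limma adjusted p up to 0.0811). The control values lay under the offset of 16, so the size depends on it: with offsets of 1 and 64 the change was 2.37 and 0.69 at 3 h and 1.29 and 0.27 at 12 h, and the 12 h call ended with an offset of 1 (limma adjusted p = 0.0640). Without the 5 arrays high in pancreatic transcripts the 3 h change was 1.51 and passed (limma adjusted p = 0.0212). That fit keeps 12 h replicate 2 as the only 12 h sample. Its 12 h results are therefore given as sizes alone, here and below: 0.78 at 12 h and −0.74 from 3 h to 12 h. RNA of whole colon was measured, so a change in the number of cells of a type and a change in RNA per cell cannot be told apart here or below. The distal Hox and adipocyte sums given above moved at 3 h as well, and their part in the Ugt8a result was not tested.

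**Figure D3:**
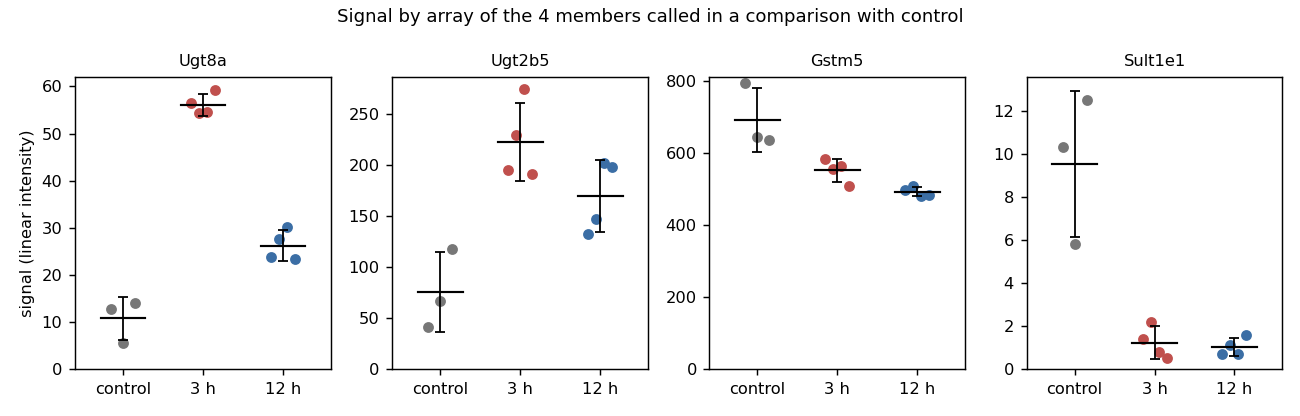
Linear signal by array (points) of the 4 genes called against control, for control (n = 3), 3 h (n = 4) and 12 h (n = 4) samples, with group means as horizontal bars and SD as error bars. Ugt8a separates into 3 levels, Ugt2b5 lies above control at both times, Gstm5 is lowest at 12 h, and Sult1e1 stays below 16 throughout.

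Ugt2b5 belongs to the UGT2B enzymes, which glucuronidate steroids and many drugs. Its signal was 41.0, 66.3 and 118.0 in control, 195.3, 230.2, 274.6 and 191.5 at 3 h, and 132.0, 147.6, 201.8 and 198.3 at 12 h. All treated samples lay above all control samples, and the SD was 38.6 around a mean of 222.9 at 3 h, against 39.3 around a mean of 75.1 in control. The 3 h change was 1.47 ± 0.25 (SE; limma adjusted p = 0.0108). The 12 h change was 1.10 ± 0.25 and did not pass (limma adjusted p = 0.0512), and the change from 3 h to 12 h, −0.37 ± 0.23, did not pass either (limma adjusted p = 0.463). The 3 h call was lost without control replicate 2 (limma adjusted p = 0.0543) and without the arrays high in pancreatic transcripts (log2 change 1.07, limma adjusted p = 0.131). Of 23 alternatives, 7 let the 12 h change pass, 1 of them without control replicate 3 (log2 change 1.42, limma adjusted p = 0.0127). Others were an offset of 64, equal array medians, a filter at a mean signal of 32 and a variance trend with robust prior. A replicate block and a threshold of 0.1 were the last. Of the 9 proximal colon markers measured, Osr2, Hoxb3 and Hoxb6, picked after their values were seen, also lay wholly above control at both times. Over all genes tested, 6.76% did so at 3 h and 6.02% at 12 h. The sum of all 9 did overlap, at 827 to 1083 at 3 h and 950 to 1139 at 12 h against 661 to 1370 in control. Its mean was 919.1 at 3 h and 1062.9 at 12 h, against 937.5 in control, so the 3 picked genes do not stand for the list. Osr2 was 97.4 to 232.3 at 3 h and 137.1 to 229.9 at 12 h, against 2.7, 14.8 and 65.1 in control. Hoxb3 was 54.1 to 78.6 over the treated samples against 22.1 to 40.1 in control, and Hoxb6 was 34.3 to 97.9 against 19.4 to 28.8. The part of these regional genes and of the distal Hox sum in the Ugt2b5 result was not tested.

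Among the other Ugt2 genes, Ugt2b34 had a signal of 2113.3, 2486.2, 2455.7 and 2459.6 at 12 h, against 2066.0, 2046.6 and 1934.5 in control. The groups did not overlap, yet the change of 0.23 ± 0.10 (SE) did not pass (limma adjusted p = 0.271). At 3 h Ugt2b34 averaged 2161 ± 156 (SD, n = 4), with 1 sample within the control range and 3 above it. A second Ugt2b34 probe set read 1509.3 to 1903.5 at 12 h, overlapping the 1534.0 to 1682.8 in control. Its changes were −0.057 at 3 h and 0.115 at 12 h, and neither passed (limma adjusted p = 0.926 and 0.737 over all probe sets). Ugt2b35 averaged 171.9 ± 30.4 at 3 h (n = 4), 155.9 ± 43.9 at 12 h (n = 4) and 197.3 ± 51.8 in control (SD, n = 3), and its groups overlapped. Ugt2b38 was dim in all samples, at 0.8 to 14.9 at 12 h against 0.2 to 1.4 at 3 h (limma adjusted p = 0.177). Ugt3a1, dim as well, was 1.6 to 17.7 at 3 h against 1.7 to 6.3 in control (limma adjusted p = 0.328). The 8 Ugt2 members lie on chromosome 5, where they are followed by 3 Sult1 members, Sult1b1, Sult1d1 and Sult1e1. Of these 11 neighbours Ugt2b5 rose and Sult1e1 fell at 3 h, and the other 9 did not pass.

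The Ugt1a enzymes, which glucuronidate bilirubin and phenols, come from 1 locus at which alternative first exons join the same later exons. Their probe sets therefore carry several symbols, fall outside the rule for members and name no single gene. The array holds 3 such probe sets, each with 8 Ugt1a symbols, and all 3 were higher in every treated sample than in every control sample. Non-overlap was not counted over all probe sets. Over all genes tested, 6.76% were wholly higher than control at 3 h and 6.02% at 12 h. The 3 sets read 1 locus, so they are not 3 separate results. The first read 1592.5, 1670.4 and 1757.2 in control, 2502.7, 2655.4, 3096.6 and 2629.8 at 3 h, and 2230.8, 2710.2, 3457.6 and 2750.0 at 12 h. The second read 4401.3, 4425.0 and 4287.7 in control, 5771.5, 6139.3, 6400.3 and 5304.0 at 3 h, and 5055.1, 4994.1, 7035.1 and 5965.3 at 12 h. The third read 1169.1, 1353.7 and 1328.2 in control, 2015.3, 2176.5, 2333.2 and 2094.2 at 3 h, and 1777.2, 2226.9, 2381.9 and 2292.6 at 12 h. When all 45037 probe sets were tested, 0.961% passed at 3 h and 0.486% at 12 h, and the 3 sets moved by unequal amounts. The third set rose by 0.74 ± 0.12 (SE) at 3 h and by 0.74 ± 0.12 at 12 h (limma adjusted p = 0.0142 and 0.0221), and the first rose by 0.69 ± 0.14 at 3 h (limma adjusted p = 0.0421) with 0.71 ± 0.14 at 12 h not passing (limma adjusted p = 0.0518). The second had changes of 0.43 ± 0.13 and 0.38 ± 0.13 and did not pass (limma adjusted p = 0.181 and 0.244). From 3 h to 12 h the 3 sets changed by 0.02, −0.05 and 0.00, and none passed (1.74% of all probe sets did).

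Calls of the Ugt1a sets were lost when some single samples were left out, although the sizes moved little. With any 1 sample left out, the third set's change stayed between 0.68 and 0.78 at 3 h and between 0.68 and 0.84 at 12 h. The first set's 3 h change stayed between 0.63 and 0.73. The third set's call ended at 3 h when control replicate 1 or 2 was left out (limma adjusted p up to 0.0856) and at 12 h without any control sample or without 12 h replicate 2 or 3 (up to 0.117), and the first set's 3 h call was lost without 9 of the 11 samples, all but 12 h replicates 1 and 3 (up to 0.173). Without the arrays high in pancreatic transcripts the third set stood at 0.64 at 3 h and did not pass (limma adjusted p = 0.216). At 12 h it stood at 0.72, from 12 h replicate 2 alone.

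**Figure D4:**
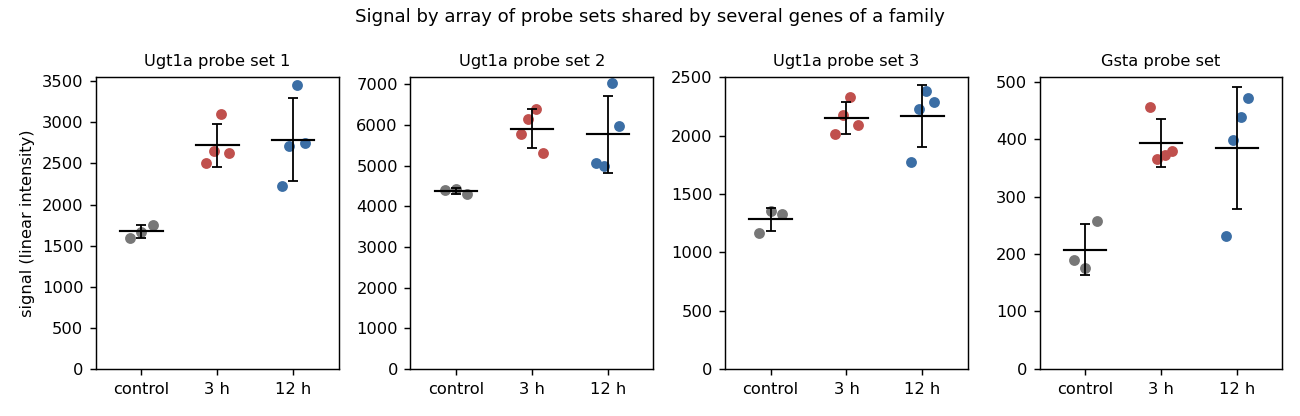
Linear signal by array (points) of the 3 probe sets shared by Ugt1a genes and of 1 shared by Gsta genes, in control (n = 3), 3 h (n = 4) and 12 h (n = 4) samples, with means as bars and SD as error bars. Every treated sample exceeds every control sample in the 3 Ugt1a panels, and in the Gsta panel 1 of the 12 h samples, at 230.7, falls within the control range.

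Of the 13 sulfotransferase genes, Sult1e1, the estrogen sulfotransferase, was the only one that passed at either time, and it was dim throughout. It read 10.3, 5.8 and 12.5 in control, 1.4, 2.2, 0.8 and 0.5 at 3 h, and 0.7, 1.1, 0.7 and 1.6 at 12 h. Each treated sample lay below each control sample, and all 11 values lay under 16. Its change was −0.56 ± 0.10 (SE) at 3 h (limma adjusted p = 0.0161) and −0.58 ± 0.10 at 12 h (limma adjusted p = 0.0217), and −0.02 between the times. The size depends on the offset, since the 3 h change was −2.25 with 1 in place of 16 and −0.17, no longer passing, with 64. Both calls were lost without control replicate 1 or 3, and the 12 h call also without 12 h replicate 2 or 3. The limma adjusted p was then up to 0.0785 at 3 h and 0.0897 at 12 h. Without the arrays high in pancreatic transcripts the 3 h call was lost (limma adjusted p = 0.249). The 12 h change there was −0.54, from 12 h replicate 2 alone.

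The sulfotransferases with higher signals did not pass. Sult1d1, which sulfates catecholamines, read 1909.4, 2157.2 and 2182.6 in control, 2121.4, 3273.0, 3095.9 and 2407.0 at 3 h and 1960.0, 2734.2, 2019.7 and 2935.7 at 12 h. The groups overlapped, and its 3 h change of 0.37 ± 0.18 (SE) did not pass (limma adjusted p = 0.381). A second Sult1d1 probe set lay higher in every 3 h sample than in any control sample and had a change of 0.55, which did not pass either (limma adjusted p = 0.388 over all probe sets). Sult1a1, a phenol sulfotransferase, averaged 1762 ± 212 at 3 h and 1572 ± 269 at 12 h (n = 4 each), against 1563 ± 383 in control (SD, n = 3).

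Sult2b1, which sulfates cholesterol and other hydroxysteroids, read 173.0, 164.5 and 169.6 in control, 263.1, 212.3, 209.0 and 183.6 at 3 h, and 148.3, 127.0, 118.6 and 239.4 at 12 h. The 3 h samples lay above all control samples, and 3 of the 4 samples at 12 h lay below them. Its change from 3 h to 12 h, −0.46 ± 0.18 (SE), did not pass (limma adjusted p = 0.202), but without 12 h replicate 4, the sample at 239.4, it was −0.66 and passed (limma adjusted p = 0.0149). Sult4a1, a brain-enriched member, averaged 26.4 ± 6.42 at 3 h (n = 4) and 20.2 ± 6.00 at 12 h (n = 4), against 17.4 ± 5.86 in control (SD, n = 3), and did not pass (limma adjusted p = 0.361 at 3 h). Sult1c1 was dim, at 2.3 to 16 at 3 h against 1.3 to 7.2 in control (limma adjusted p = 0.339).

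Gstm5, a mu-class transferase, was the only one of the 23 glutathione transferase genes that passed. It read 794.7, 643.3 and 635.1 in control, 582.9, 554.0, 563.9 and 507.9 at 3 h and 495.7, 509.2, 480.9 and 484.3 at 12 h. Every treated sample lay below every control sample, and the SD was 12.8 at 12 h, against 89.9 in control. Its change was −0.47 ± 0.10 (SE) at 12 h (limma adjusted p = 0.0435) and −0.31 ± 0.10 at 3 h, which did not pass (limma adjusted p = 0.152). The 12 h call was marginal. It was lost when any 1 of the 11 samples was left out (limma adjusted p up to 0.156), with changes between −0.52 and −0.37. Without the arrays high in pancreatic transcripts the 12 h change was −0.32, from 12 h replicate 2 alone. The fibroblast and smooth muscle sums given above were lower at 12 h too, and their part in the Gstm5 result was not tested.

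The 7 Gstm members form a cluster on chromosome 3, in the order Gstm5, Gstm7, Gstm6, Gstm3, Gstm2, Gstm1 and Gstm4. At 12 h all 7 had a log2 change below 0, from −0.47 to −0.05 with a median of −0.21, and 1 of them passed. Over all genes tested, 8838 of 18193 had a change above 0 at 12 h. The sign was below 0 for all 7 under both other scalings (equal medians and quantile normalization), but for 5 of 7 without 12 h replicate 1 and for 6 of 7 without the arrays high in pancreatic transcripts. Of 5 dimmer probe sets of these genes, 3 had changes below 0 (−0.27 and −0.07 for Gstm1 and −0.17 for Gstm3) and 2 above 0 (0.16 for Gstm1 and 0.09 for Gstm7), and none passed when every probe set was tested. Gstm6 read 48.2, 54.2, 50.2 and 60.6 at 12 h, against 80.2, 94.8 and 59.8 in control, a change of −0.43 ± 0.16 (SE) that did not pass (limma adjusted p = 0.203). Gstm2 and Gstm7, named after their values were seen, were the other cluster members whose 12 h samples all lay below control, at 339.1 to 494.5 against 503.9 to 523.0 for Gstm2 and 43.6 to 63.1 against 63.4 to 69.5 for Gstm7. Gstm1 averaged 870.4 ± 214 at 12 h (n = 4) and 993.5 ± 201 in control (SD, n = 3), with wide overlap. Because these genes are close in sequence, a probe set of 1 of them could also take up RNA of another, which was not tested.

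The pi-class gene Gstp1 read 3420.9, 3299.2 and 3637.4 in control, 4060.4, 3847.8, 4268.1 and 3848.6 at 3 h and 3801.7, 3586.2, 4325.3 and 4149.9 at 12 h. The 3 h samples all lay above control, but the change of 0.21 ± 0.10 (SE) did not pass (limma adjusted p = 0.329), nor did 0.20 ± 0.10 at 12 h (limma adjusted p = 0.362). The kappa-class gene Gstk1, whose enzyme resides in mitochondria and peroxisomes, averaged 781.0 ± 87.3 at 3 h (n = 4) and 639.1 ± 95.3 at 12 h (n = 4), against 656.5 ± 39.8 in control (SD, n = 3). Its change from 3 h to 12 h, −0.29 ± 0.12, did not pass (limma adjusted p = 0.240). Gsto1, an omega-class enzyme that reduces dehydroascorbate, averaged 2792 ± 94.7 at 3 h and 2776 ± 281 at 12 h (n = 4 each), against 2680 ± 219 in control (SD, n = 3). A second Gsto1 probe set averaged 1967 ± 154 at 3 h and 2266 ± 501 at 12 h, against 1729 ± 339 in control (SD). Its groups overlapped, and its 12 h change of 0.38 did not pass (limma adjusted p = 0.44 over all probe sets). Gstt3 averaged 304.2 ± 45.0 at 12 h, against 256.2 ± 17.9 at 3 h (SD, n = 4 each; limma adjusted p = 0.349).

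The membrane-bound enzymes did not pass. Mgst1, found in the endoplasmic reticulum and the outer mitochondrial membrane, averaged 2917 ± 130 at 3 h and 3051 ± 213 at 12 h (n = 4 each), against 2881 ± 414 in control (SD, n = 3). Mgst3 read 2591.2, 3262.2, 2374.3 and 4183.9 at 12 h, against 4218.8, 3728.6 and 3822.6 in control. Of the 12 h samples, 3 lay below all control samples and 1 lay among them, and the change of −0.37 ± 0.17 (SE) did not pass (limma adjusted p = 0.326).

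In the alpha class, Gsta4, whose enzyme conjugates the lipid aldehyde 4-hydroxynonenal, averaged 284.0 ± 51.2 at 3 h and 279.7 ± 89.2 at 12 h (n = 4 each), against 200.4 ± 42.6 in control (SD, n = 3), and its groups overlapped. Gsta3 averaged 75.6 ± 12.0 at 3 h, 70.2 ± 10.3 at 12 h and 80.2 ± 8.77 in control. A probe set shared by Gsta1, Gsta2 and a predicted gene read 189.1, 176.4 and 258.2 in control, 456.5, 366.3, 371.8 and 379.2 at 3 h and 230.7, 399.1, 438.6 and 471.1 at 12 h. Every 3 h sample lay above control, but neither the change of 0.88 ± 0.22 (SE) at 3 h nor that of 0.81 ± 0.22 at 12 h passed (limma adjusted p = 0.0941 and 0.142). Both passed without 12 h replicate 1 (limma adjusted p = 0.0173 and 0.0206, with a 12 h change of 1.03). The single-symbol Gsta2 probe set was dim, at 6.2 to 15.5 in all samples but control replicate 3, which read 1.4.

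The precision of the tests sets what the calls that were not made can say. For 3 h against control, the 95% interval of the change stayed within 1.5-fold in either direction for 31 of the 44 genes that did not pass and within 2-fold for 43. At 12 h the counts were 30 and 43 of 44, and between the times 34 and 46 of 46. For the Gst and Mgst genes 19 of 23 intervals were within 1.5-fold at 3 h and 16 of 22 at 12 h. These counts include the dim genes, whose change the offset compresses. Among members with a mean signal of 16 or more that did not pass, 19 of 30 were within 1.5-fold at 3 h and 21 of 30 at 12 h. The 12 h replicate 1 sample was the lowest of its group for 21 of the 32 members with a mean signal of 16 or more, and 12 h replicate 4 was the highest for 17.

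Genes that feed these enzymes were read from lists chosen with earlier results known. Of all genes tested, 1.43% rose and 1.11% fell at 3 h, and 0.781% rose and 0.835% fell at 12 h. From 3 h to 12 h, 1.99% rose and 2.09% fell. These shares belong beside the counts of every list below. Of 8 genes for UDP-glucuronate supply and glucuronide cleavage, 1 rose and none fell at either time, with median changes of 0.11 and 0.11. It was Slc35d1, which carries UDP-glucuronate into the endoplasmic reticulum where the UGT enzymes face the lumen. Slc35d1 read 164.1, 206.3 and 241.6 in control, 491.9, 510.3, 630.6 and 576.1 at 3 h, and 409.2, 578.1, 653.7 and 567.8 at 12 h. All treated samples lay above control, with changes of 1.38 ± 0.17 (SE; limma adjusted p = 0.00125) and 1.37 ± 0.17 (limma adjusted p = 0.00229), and both calls held when any 1 sample was left out. With the mean of all its probe sets the changes were 1.02 (limma adjusted p = 0.0496) and 0.78, and the 12 h call ended (limma adjusted p = 0.136). Without the arrays high in pancreatic transcripts the 3 h change was 1.18 and passed (limma adjusted p = 0.0252). The 12 h change was 1.31, from 12 h replicate 2 alone.

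Of 17 genes for sulfate supply and sulfate ester cleavage 15 were measured, and 1 rose at 3 h, 2 rose at 12 h and none fell, with median changes of −0.02 and 0.00. Papss2, which makes PAPS, read 1789.4, 1676.4 and 1542.6 in control, 2287.1, 2303.9, 2423.0 and 2300.8 at 3 h, and 2218.8, 2388.9, 3013.5 and 2377.8 at 12 h. Treated and control samples did not overlap, with changes of 0.48 ± 0.11 (SE) at 3 h and 0.57 ± 0.11 at 12 h (limma adjusted p = 0.0474 and 0.0302). The 3 h call was lost without 9 of the 11 samples, all but 12 h replicates 1 and 3 (limma adjusted p up to 0.131), and the 12 h call without any control sample, 3 h replicate 1 or 12 h replicate 2 or 3 (up to 0.107). Slc13a1, the sodium-sulfate cotransporter, read 226.3, 282.2, 396.1 and 270.5 at 12 h, all of them above the 34.7, 50.5 and 131.9 in control. Its 12 h change was 1.94 ± 0.31 (limma adjusted p = 0.0138), and the call ended when control replicate 1 or 2 was left out (limma adjusted p up to 0.0769). With the mean of its probe sets the change was 1.07 and did not pass. Without the arrays high in pancreatic transcripts Papss2 did not pass at 3 h (limma adjusted p = 0.153). The 12 h changes, from 12 h replicate 2 alone, were 1.59 for Slc13a1 and 0.57 for Papss2.

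Of 20 genes of glutathione synthesis and recycling 19 were measured, and 3 rose and none fell at 3 h, none passed at 12 h, and 2 fell from 3 h to 12 h, with medians of 0.14, 0.07 and −0.11. Gclc, the catalytic subunit of the first enzyme of glutathione synthesis, read 706.3, 700.1, 839.5 and 761.6 at 3 h, all above 429.8, 453.8 and 425.3 in control. Its change was 0.76 ± 0.15 (SE; limma adjusted p = 0.0198), lost without any control sample or 3 h replicate 3 or 4 (limma adjusted p up to 0.0857). Chac1, which degrades glutathione, read 414.7, 166.0, 109.2 and 102.6 at 3 h against 41.1, 27.7 and 28.6 in control, a change of 1.94 ± 0.37 (limma adjusted p = 0.0181) that was lost without any control sample or 3 h replicate 2 (up to 0.0794). At 12 h Chac1 was lower than at 3 h, with a log2 change of −1.82 ± 0.34 (limma adjusted p = 0.0121). Slc3a2, a subunit of the cystine importer among other amino acid exchangers, rose at 3 h by 0.96 ± 0.15 (limma adjusted p = 0.00738) and was lower at 12 h than at 3 h, with a log2 change of −0.69 (limma adjusted p = 0.0199). The last call was lost without 3 h replicate 1 or 2 or 12 h replicate 2 (up to 0.0629). Without the arrays high in pancreatic transcripts the 3 h call of Slc3a2 held (limma adjusted p = 0.0432). The 3 h calls of Gclc (limma adjusted p = 0.0811) and Chac1 (0.150) ended. Between the times, with 12 h replicate 2 as the only 12 h sample, the changes were −2.45 for Chac1 and −0.96 for Slc3a2.

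**Figure D5:**
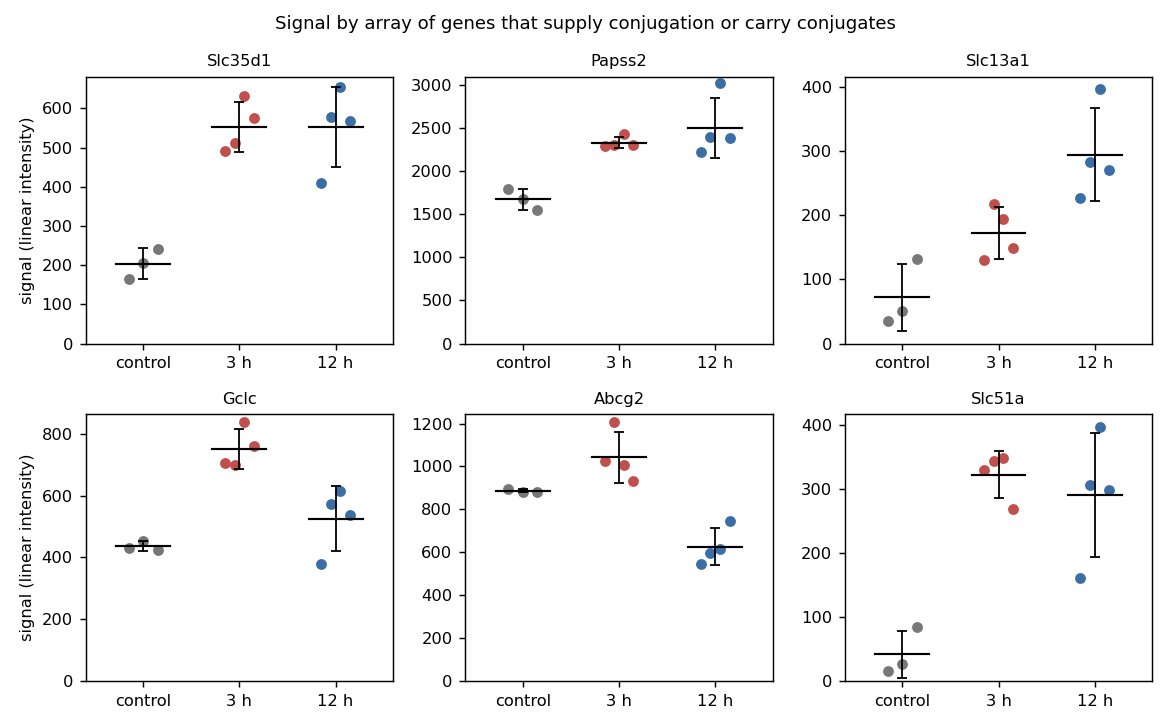
Linear signal by array (points) of genes that supply conjugation or carry conjugates, in control (n = 3), 3 h (n = 4) and 12 h (n = 4) samples, with means as bars and SD as error bars. Slc35d1, Papss2 and Slc51a lie above control in all treated samples, Gclc in all 3 h samples and Slc13a1 in all 12 h samples, while Abcg2 is lowest at 12 h.

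Of 16 conjugate and drug efflux genes 15 were measured, and 1 rose at each time and 1 fell between the times. The riser was the bile acid transporter subunit Slc51a, with changes of 2.72 and 2.52 (limma adjusted p = 0.00200 and 0.00578). It read 15.9, 25.7 and 83.6 in control, a wide spread. Without the arrays high in pancreatic transcripts the 3 h call ended (limma adjusted p = 0.0584). The 12 h change was then 2.32, from 12 h replicate 2 alone. Abcg2, the apical efflux pump that carries sulfate conjugates and also imatinib, read 895.0, 883.0 and 882.2 in control, 1023.5, 1208.8, 1008.8 and 929.9 at 3 h and 544.2, 594.8, 614.7 and 747.0 at 12 h. The groups were fully apart, with 3 h highest and 12 h lowest. From 3 h to 12 h it fell by 0.73 on the log2 scale, with an SE of 0.11 (limma adjusted p = 0.00394, and at most 0.0164 with any 1 sample left out). The change was −0.80 without the arrays high in pancreatic transcripts, where 12 h replicate 2 was the only 12 h sample.

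Among 20 regulators of these genes 19 were measured, and 4 rose at 3 h, 1 fell at 12 h, and 2 rose and 2 fell from 3 h to 12 h. Of all genes, 1.43% rose at 3 h, 0.835% fell at 12 h, and 1.99% rose and 2.09% fell between the times. At 3 h the risers were Bach1, which represses NRF2 targets (0.80 ± 0.13 SE), its partner Maff (0.74 ± 0.12), the nuclear receptor Pparg (0.94 ± 0.15) and the intestinal transcription factor Cdx2 (0.75 ± 0.10), with limma adjusted p between 0.00243 and 0.00801. Without the arrays high in pancreatic transcripts none of the 4 passed (limma adjusted p = 0.0868 for Bach1, 0.0932 for Maff, 0.113 for Pparg and 0.0748 for Cdx2). Pparg also marks adipocytes, whose marker sum was higher at 3 h, and the part of that in its change was not tested. Ahr, which binds the xenobiotic response element, fell by 0.49 at 12 h (limma adjusted p = 0.0401), a call lost without 10 of the 11 samples, all but 3 h replicate 3 (limma adjusted p up to 0.149). From 3 h to 12 h the glucocorticoid receptor gene Nr3c1 (0.65 ± 0.11 SE) and the vitamin D receptor gene Vdr (0.44 ± 0.10) rose, while Maff (−0.64 ± 0.11) and Bach1 (−0.50 ± 0.12) fell, with limma adjusted p between 0.00648 and 0.0398. The Vdr call ended when any 3 h sample or 12 h replicate 2, 3 or 4 was left out (limma adjusted p up to 0.0853), and the Bach1 call when any 12 h sample, control replicate 2 or 3 h replicate 1, 2 or 4 was left out (up to 0.110). With the mean of their probe sets the change was 0.40 for Nr3c1, which passed, and −0.32 for Bach1, which did not (limma adjusted p = 0.111). Without the arrays high in pancreatic transcripts, 12 h replicate 2 was the only 12 h sample. The changes from 3 h to 12 h were then 0.54 for Nr3c1, 0.39 for Vdr, −0.60 for Maff and −0.51 for Bach1. That of Ahr at 12 h against control was −0.33.

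Of 16 other NRF2 targets, a list that also holds Gclc, 15 were measured and Gclc alone rose at 3 h, with a list median of 0.25. None of them passed at 12 h, when the median was 0.14. Of 17 enzymes of other conjugation reactions 16 were measured and none passed against control, and Nnmt, a nicotinamide methyltransferase, was lower at 12 h than at 3 h (log2 change −0.67 ± 0.16, limma adjusted p = 0.0398). The Nnmt call was lost without control replicate 3, 3 h replicates 2, 3 or 4 or 12 h replicates 1, 2 or 4. The limma adjusted p was then up to 0.111. Without the arrays high in pancreatic transcripts the Nnmt change was −0.75, with 12 h replicate 2 as the only 12 h sample.

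The labels give hours after imatinib and no clock time of harvest. Of 17 circadian clock genes, 2 rose and 1 fell at 3 h, 6 rose and 2 fell at 12 h, and 7 rose and 3 fell between 3 h and 12 h, with medians of −0.16, 0.61 and 0.68. Of all genes, 2.54% passed in either direction at 3 h, 1.62% at 12 h and 4.08% between the times. The part of the clock genes in the changes of the conjugation genes was not tested.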

How the data were processed

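RNA from 11 colon samples was hybridised to 1-colour Affymetrix arrays, 1 array per sample. The deposited values are linear intensities, 1 signal for each of 45101 probe sets, and the software that made them is not given in the sources used here. These deposited intensities had the same mean, 100.0, on every array after trimming 2% at each end, so each array had been scaled by 1 factor, with array medians of 16.8 to 23.9. Precision is limited by the 11 arrays.

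Of the probe sets, 64 were controls, 34945 had 1 symbol, 932 several and 9160 none, per the platform annotation. Entrez numbers brought the symbols up to date (99.4% found in RefSeq GRCm38.p6). Members have 61 probe sets in all, with more than 1 for 12 genes. Tests used limma 3.58.1 in R 4.3.3 on log2(signal + 16), all 11 arrays sharing 1 spread (8 residual and 3.98 prior degrees of freedom), with no level filter, and Benjamini-Hochberg adjustment over 18193 genes, 2-sided, called under 0.05. Probe sets with several symbols, and second probe sets, were tested in a fit of all 45037. The code was tested on simulated data.

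Members and lists were chosen with earlier results of these data known. Named members were those called, the 2 of highest mean signal per subfamily, and the 10 with the smallest p per contrast. From other lists, called genes were named, at most 4 per contrast. Alternatives changed the offset, the scaling, the threshold or the prior, added a level filter, array weights or a replicate block, averaged probe sets, fitted 2 groups alone or dropped each array in turn. A fit of single probe sets and 1 without the 5 arrays rich in pancreatic transcripts were added after seeing the data. Correlations of the deviations of same-numbered arrays lay between −0.208 and 0.309, so the numbers were not taken to pair samples. Figures used matplotlib 3.10.9 in Python 3.11.15.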

Additional observations from a re-analysis of the deposited data

Results flagged for a closer look

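The change of Ugt8a from 3 h to 12 h, −0.78 on the log2 scale (SE 0.11; limma adjusted p = 0.00277), is listed because the size of the difference from control itself differed between the 2 times: all 4 samples at 12 h lay below all 4 samples at 3 h. Without the 5 arrays high in pancreatic transcripts the change was −0.74, with 12 h replicate 2 as the only 12 h sample.

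The signal of Ugt2b34 in 12 h replicate 1, 2113.3, lay far below the other 3 samples of its group, which were at 2455.7 to 2486.2. It was the 1 such value among 50 groups of 4 samples (25 named genes at 2 times), and chance gives about 1 in 20 groups.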

How the results depend on the processing

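The direction was followed for called members in all comparisons and for the 10 members with the smallest p in each. It was also followed for the shared Ugt1a and Gsta probe sets against control. Other list genes were followed in the comparisons that called them, with circadian clock genes left out. Among these changes the direction held under the alternatives except for Sult1e1 from 3 h to 12 h. That change was −0.02 in the main analysis and ranged from −0.037 to 0.011 when 1 sample was left out. Outside these, the 12 h change was below 0 for all 7 Gstm genes in the main analysis, and for 5 without 12 h replicate 1 and 6 without the arrays high in pancreatic transcripts. Of 1408 values of the first set under an alternative, 1215 stayed on the same side of the threshold, 172 lost a call, 20 gained one and 1 changed sign. The number of conjugation genes called at 3 h, 3 in the main analysis, was 1 without the arrays high in pancreatic transcripts and 2 to 3 with 1 sample left out. At 12 h, 3 in the main analysis, it was 1 with an offset of 1, 0 with only the 2 groups compared, and 0 to 2 with 1 sample left out. It was highest, at 4, with a variance trend and robust prior and at an adjusted p under 0.1, with 2 higher and 2 lower in each. Between 12 h and 3 h, 1 in the main analysis, it was 0 without those arrays and 1 to 2 with 1 sample left out. Leaving out those 5 arrays leaves 6 samples, with fewer degrees of freedom.

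With the replicate number as a block, which the pairing check did not bear out, 2, 1 and 1 conjugation genes were called in the 3 comparisons, and 278, 182 and 467 genes in all. With the block Ugt8a passed at 3 h (1.45, limma adjusted p = 0.00150), not at 12 h (0.67, 0.0556), and passed from 3 h to 12 h (−0.78, 0.0120); Ugt2b5 passed at both times (1.46 and 1.09, 0.00406 and 0.0261); Gstm5 (12 h, 0.103) and Sult1e1 (0.0636 and 0.0691) did not pass.

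Over all genes, 463 were called at 3 h, with 228 at an offset of 1, 704 with genes under a mean signal of 32 left out, 879 at an adjusted p under 0.1, 80 without the arrays high in pancreatic transcripts and 161 to 520 with 1 sample left out. At 12 h 294 were called, with 80 and 492 at offsets of 1 and 64 and 570 under the level filter. There were 527 with a variance trend and robust prior and 60 with only the 2 groups compared. The number was 682 at an adjusted p under 0.1 and 63 to 449 with 1 sample left out. Between the times 742 were called, with 437 at an offset of 1 and 1276 at an adjusted p under 0.1. With 1 sample left out the number was 391 to 755. Arrays shifted to equal medians gave 164 higher and 115 lower at 12 h, beside 142 and 152. The causes of these changes were not tested.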
